A study of Mus musculus with 21 samples.

Results

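The hearts of mice given a PDE5A inhibitor under pressure overload were compared directly with those of mice given a PDE9A inhibitor under the same overload. The comparison takes the 5 libraries labelled TAC+PDE5A-I against the 6 labelled TAC+PDE9A-I, 11 of the 21 libraries in the series, chosen by their labels alone. All animals were C57BL/6J mice with no engineered allele named in the labels. Transverse aortic constriction (TAC) narrows the aorta and makes the left ventricle pump against a raised pressure. Both inhibitor groups had TAC, and from 1 week after surgery 1 group had sildenafil (PDE5A-I) and the other PF-04449613 (PDE9A-I), each for 4 weeks. The other groups, used here for reference levels, were 5 sham-operated mice and 5 mice with TAC and no drug. The sources used here do not give age, sex, dose, vehicle or hour of collection, so whether the doses of the compounds match is unknown. Total RNA from flash-frozen left ventricular myocardium was sequenced, 1 library per animal, each animal with its own ear tag. P-values below measure the spread between these animals.

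Cyclic GMP is a second messenger that restrains growth and stiffness of the heart muscle cell through protein kinase G. It is made in separate pools, by receptors for natriuretic peptides at the cell membrane and by the soluble guanylate cyclase that nitric oxide activates. Phosphodiesterases destroy it. In cardiac myocytes PDE5A has been tied mainly to the nitric oxide pool and PDE9A to the natriuretic peptide pool, so a direct comparison asks which transcripts tell a heart given one inhibitor from a heart given the other.

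A single gene was called in that comparison. Cd79b, which encodes the beta chain of the signalling part of the B cell receptor, was higher with the PDE5A inhibitor. Over the 14135 genes tested this is 0.00707% called at an adjusted p under 0.05 with edgeR's quasi-likelihood test, 1 gene higher and none lower. An unadjusted p under 0.05 was reached by 1472 genes (10.4%), 637 of them higher with the PDE5A inhibitor (4.51%) and 835 lower (5.91%). DESeq2 on the same genes called 35, 17 higher and 18 lower, Cd79b among them. Genes in which the 5 and 6 libraries did not overlap numbered 107 (0.757%), with 53 higher and 54 lower. More than 2-fold apart were 67 genes in the higher and 61 in the lower direction. The median absolute log2 fold change was 0.10 and its 90th percentile 0.36. For 90.01% of genes the 95% interval of the log2 fold change lay within 1 on either side of 0, with a median half-width of 0.23. All fold changes are PDE5A minus PDE9A inhibitor, so a positive value is a higher level with sildenafil. Levels are in CPM, counts scaled to a common library total after TMM scaling.

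**Figure D1:**
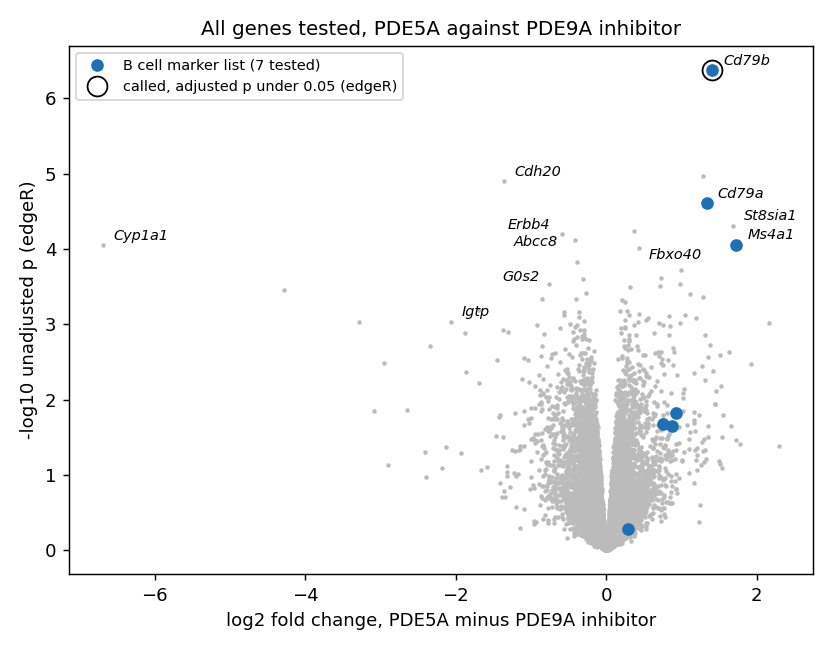
Each point is 1 of the 14135 genes tested, by its log2 fold change (PDE5A minus PDE9A inhibitor, horizontal) and the negative log10 of its unadjusted edgeR p (vertical). The ringed point, Cd79b, is the only gene called, and the other 6 tested B cell markers (blue) also lie to the right of 0.

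The libraries differed in ways that touch several results. Total counts ran from 26725132 to 36475924 in the PDE5A inhibitor group and from 24259067 to 34068224 in the PDE9A inhibitor group, with the higher mean in the former (two-sided exact permutation test p = 0.0195, smallest p possible 0.00216). PDE9A inhibitor libraries 1 and 4 stood apart from the rest, with 0.326% and 0.416% of counts on Rn45s, a ribosomal RNA precursor, against 0.228 to 0.275% in the other 9 inhibitor libraries. The PDE9A inhibitor group was also the more spread out: its SD of log2 CPM exceeded that of the PDE5A inhibitor group for 72.9% of genes, with medians of 0.21 and 0.16, and 0.18 in the former without libraries 1 and 4. Results that rest on these libraries are given with and without them. The ear tags fall in series: PDE5A inhibitor libraries 1 and 2 and PDE9A inhibitor libraries 2 to 5 carry tags of the 500 series. PDE5A inhibitor libraries 3, 4 and 5 and PDE9A inhibitor library 6 are of the 600 series. PDE9A inhibitor library 1 is the only inhibitor library of the 100 series, so drug and series are not balanced. The labels do not say what a series stands for. Cardiomyocyte markers were abundant in every inhibitor library, at a summed 75560 to 101500 CPM and 83520 to 130100 CPM over all 13 markers.

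The genes that carry the clearest pattern are those of B cells, which recognise antigen through a surface immunoglobulin. CD79A and CD79B pass on that receptor's signal, and CD20 (Ms4a1) and CD22 sit in the same membrane. Of the 10 genes in the B cell list 8 were in the file and 7 passed the filter on low counts. All 7 were higher with the PDE5A inhibitor, with a median log2 fold change of 0.92, where 48.4% of all genes tested were higher and their median was -0.01. An unadjusted p under 0.05 was reached by 6 of 7, and 3 of 7 had no overlap between the groups, against 4.51% and 0.375% of all genes in that direction. The list was chosen with earlier results of these data known and holds the called gene, so these shares are a description and not a test. Pax5, the transcription factor that defines the lineage, did not pass the filter: it stood between 0 and 0.309 CPM with the PDE5A inhibitor and between 0 and 0.142 CPM with the PDE9A inhibitor.

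Cd79b (ENSMUSG00000040592.11, GRCm38 chromosome 11, 106311341 to 106314762, minus strand, protein-coding) stood at 1.40, 1.54, 1.46, 1.49 and 2.11 CPM in the PDE5A inhibitor libraries. In the PDE9A inhibitor libraries it ran from 0.419 to 0.701 CPM with a median of 0.643. Every PDE5A inhibitor library was thus above every PDE9A inhibitor library. Behind these levels lie 40 to 75 counts per library in the first group and 10 to 24 in the second. The log2 fold change was 1.41 (SE 0.19, edgeR adjusted p = 0.00591), and Cd79b was called in each of the 11 fits that left out 1 inhibitor library, with log2 fold changes from 1.29 to 1.46. The call was lost in a fit of the 11 inhibitor libraries alone (1.41, adjusted p = 0.0722), with the replicate number as a block (1.34, adjusted p = 0.112) and among animals with ear tags of the 500 series (1.19, adjusted p = 1.00). Without PDE9A inhibitor libraries 1 and 4 the value was 1.47 (adjusted p = 0.0384).

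Cd79a (ENSMUSG00000003379.7, GRCm38 chromosome 7, 24897381 to 24902197, plus strand), the alpha chain, stood at 0.632, 0.339, 0.547, 0.596 and 0.562 CPM with the PDE5A inhibitor. With the PDE9A inhibitor it ran from 0.152 to 0.251 CPM, median 0.215. The groups did not overlap, although PDE5A inhibitor library 2 lay closer to the other group than to its own. The log2 fold change of 1.34 (SE 0.25) did not pass in edgeR (adjusted p = 0.0866). It passed in DESeq2 (1.36, adjusted p = 0.0377). In edgeR it passed without PDE5A inhibitor library 2 (1.47, adjusted p = 0.0498), but leaving out the library nearest the other group widens the difference by itself. Ms4a1 stood at 0.769, 0.990, 1.02, 0.732 and 1.35 CPM against 0.0758 to 0.438 CPM, again with no overlap (log2 fold change 1.73, SE 0.36, edgeR adjusted p = 0.124). Ms4a1 was lowest in PDE9A inhibitor libraries 4 and 6, at 0.0758 and 0.126 CPM, where it rests on very few reads. The remaining markers named here were less far apart and overlapped: Blk, a kinase of the receptor pathway, at 0.88 (SE 0.35), Cd22, an inhibitory co-receptor, at 0.76 (SE 0.30), and the complement receptor Cr2 at 0.29 (SE 0.43).

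Set beside the reference groups, the levels with the PDE5A inhibitor lay near those of TAC and the levels with the PDE9A inhibitor near those of sham. Cd79b averaged 0.640 ± 0.134 CPM in sham, 1.34 ± 0.327 in TAC, 1.60 ± 0.288 with the PDE5A inhibitor and 0.596 ± 0.121 with the PDE9A inhibitor (SD, n = 5, 5, 5 and 6). Against TAC, Cd79b gave 0.26 (edgeR adjusted p = 0.962) with the PDE5A inhibitor and -1.16 (adjusted p = 0.0628) with the PDE9A inhibitor. Cd79a gave -0.28 (adjusted p = 0.962) and fell by 1.62 on the log2 scale (adjusted p = 0.0286). It was the 1 gene (0.00707%) called with the PDE9A inhibitor against TAC, where DESeq2 called 33 and edgeR called 46 without PDE9A inhibitor library 2, Cd79a among them in both. In edgeR this Cd79a call was lost, with 0 genes called, without PDE9A inhibitor library 1, 3, 4, 5 or 6 and without PDE5A inhibitor library 3 or 4. The same held without PDE9A inhibitor libraries 1 and 4 together, with no filter on low counts, with the ear tag term, with the replicate block and among tags of the 500 series. The direct comparison and these values use the same inhibitor libraries, and both comparisons with TAC share the TAC libraries. Summed over the 8 B cell markers in the file, the level was 4.75 to 7.84 CPM with the PDE5A inhibitor, 1.72 to 3.27 with the PDE9A inhibitor, 4.55 to 7.87 in TAC and 1.82 to 3.89 in sham. In bulk tissue fewer B cells and less RNA of these genes per cell cannot be told apart.

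**Figure D2:**
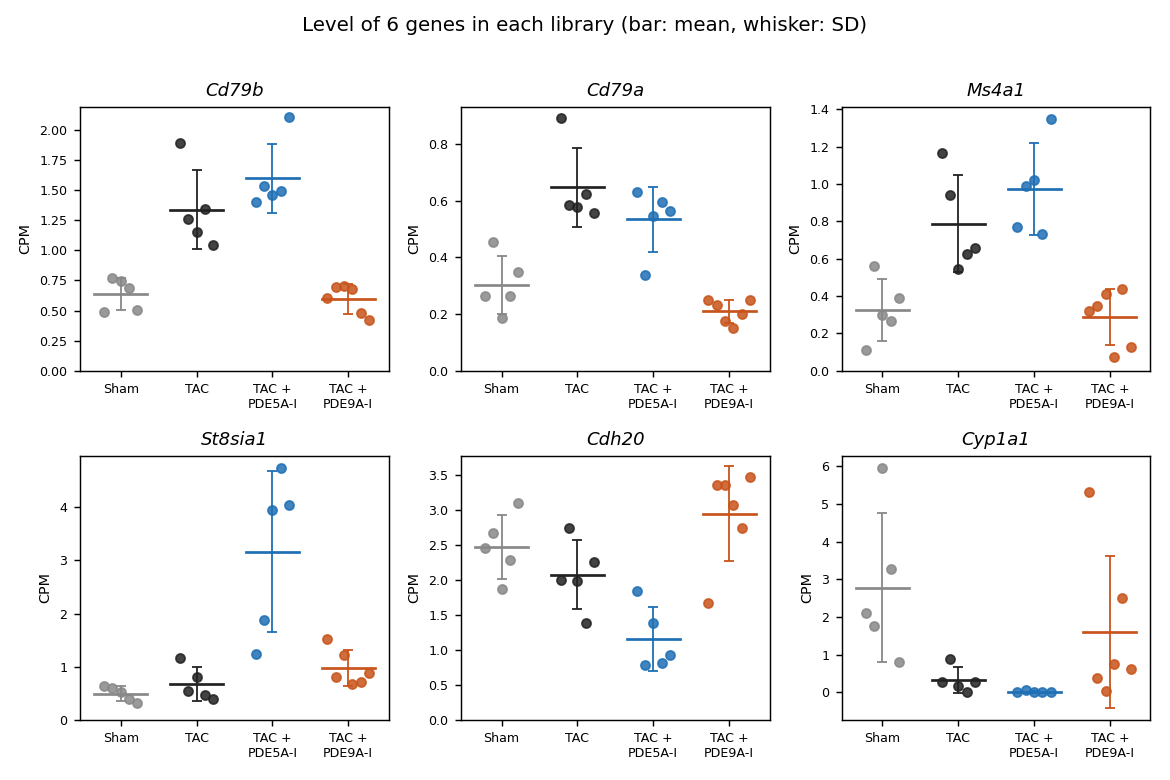
Each point is 1 library's CPM for the gene named above the panel, in sham, TAC, TAC with the PDE5A inhibitor and TAC with the PDE9A inhibitor; bars are means and whiskers SDs. Cd79b runs from 1.40 to 2.11 CPM with the PDE5A inhibitor and from 0.419 to 0.701 CPM with the PDE9A inhibitor, and Cyp1a1 is at 0 in 4 of the 5 PDE5A inhibitor libraries.

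Summed levels of other leukocyte markers overlapped between the groups. Macrophage markers, such as Mrc1 and Csf1r, summed to 443 to 613 CPM and 423 to 628 CPM, with 6 of 11 higher and a median of 0.09. T and natural killer cell markers summed to 2.22 to 3.48 CPM and 1.68 to 5.27 CPM, and 2 of the 4 tested were higher. Neutrophil markers were higher in 1 of 5, and in 5 of 5 without PDE9A inhibitor libraries 1 and 4. A further 11 genes that B cells express, chosen after the values were seen, gave 8 that could be tested. Of these 7 were higher and 1 lower, with a median of 0.90. The coactivator Pou2af1 gave 1.36 (SE 0.40), the chemokine receptor Cxcr5 1.32 (SE 0.36), and Cd72, the gene that was lower, -0.43 (SE 0.39). Cd72 read 8.39 and 8.45 CPM in PDE9A inhibitor libraries 1 and 4 and 0.921 to 3.39 CPM in the other 4.

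The promoter of a B cell gene is shown because the list moved together and because EBF factors, which set up the B cell programme, recognise a palindromic site. The RefSeq promoter table (GRCm38.p6, 250 bases before each start site to 50 after) matched 3 of the 7 tested members. The motif, TCCC then any 2 bases then GGGA, searched on both strands, is in 1 of these, Cd22, and in 0.779% of all 32851 promoters. The match is a description of the letters, not a test of binding. The stretch shown is chr7:30879049-30879118, minus strand, from 90 to 21 bases before the start site and inside the gene span that GENCODE gives Cd22. Capitals mark the motif.
Cd22: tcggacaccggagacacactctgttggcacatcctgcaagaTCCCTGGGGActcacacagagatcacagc

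Among the genes of lowest p in the higher direction outside the B cell list, St8sia1 had the largest fold change. It encodes the sialyltransferase that makes ganglioside GD3. It stood at 1.24, 1.88, 3.94, 4.74 and 4.04 CPM with the PDE5A inhibitor and at 0.682 to 1.53 CPM, median 0.844, with the PDE9A inhibitor. PDE5A inhibitor library 1 lay inside the PDE9A inhibitor range and the other 4 lay above it. The log2 fold change was 1.69 (SE 0.33, edgeR adjusted p = 0.124), and without that library 1.89 (adjusted p = 0.0109). Leaving out the library nearest the other group widens the difference by itself, so the second value is no added support. Among animals with ear tags of the 500 series it was 0.84 (adjusted p = 1.00). Against TAC, at 0.672 ± 0.318 CPM, it rose by 2.22 with the PDE5A inhibitor (adjusted p = 0.0338), in a comparison with 0.0141% of genes called, and gave 0.54 (adjusted p = 0.504) with the PDE9A inhibitor. The St8sia1 call against TAC was lost without PDE5A inhibitor library 3, 4 or 5, without PDE9A inhibitor library 2, 3 or 6, with the replicate block and among tags of the 500 series. Of 13 tested members of the ganglioside list 7 were higher and 6 lower, with a median of 0.01. The related sialyltransferase St8sia5 was at 1.21 (SE 0.56), and St3gal5, which makes the precursor GM3, at -0.28 (SE 0.15).

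The other genes of lowest p in the higher direction were of many kinds. None passed in edgeR, with adjusted p from 0.124 to 0.253, and all but Piwil2 passed in DESeq2. Rrad, a small GTPase-like protein that restrains the cardiac calcium channel, stood at 282, 293, 336, 350 and 319 CPM against 161 to 227 CPM, with no overlap (0.72, SE 0.17). Fbxo40, a muscle ubiquitin ligase subunit, stood at 281, 288, 379, 359 and 294 CPM against 211 to 268 CPM, also with no overlap (0.44, SE 0.09). Gsta1, a glutathione transferase that may share reads with the near-identical Gsta2, had no overlap either, with 3.46 to 5.07 CPM against 1.55 to 3.10 CPM (0.99, SE 0.22). The same held for the mitotic activator Cdc20 (1.11, SE 0.26), the mitochondrial carrier Slc25a36 (0.32, SE 0.07) and the Piwi family gene Piwil2 (0.73, SE 0.17). Igf2bp2, an RNA-binding protein, overlapped through PDE5A inhibitor library 1 (0.98, SE 0.23).

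In the lower direction Cdh20, a cadherin, came first (ENSMUSG00000050840.8, GRCm38 chromosome 1, 104768529 to 104995481, plus strand). It stood at 1.84, 0.781, 1.39, 0.813 and 0.927 CPM with the PDE5A inhibitor and at 1.67 to 3.48 CPM, median 3.21, with the PDE9A inhibitor. The groups overlapped only through PDE5A inhibitor library 1 and PDE9A inhibitor library 1. The log2 fold change was -1.36 (SE 0.24, edgeR adjusted p = 0.0596). It passed without PDE5A inhibitor library 1 (-1.60, adjusted p = 0.00684), without PDE9A inhibitor library 1 (-1.48, adjusted p = 0.0141) and without PDE9A inhibitor libraries 1 and 4 (-1.49, adjusted p = 0.0384). Each of these fits leaves out a library through which the groups overlapped, which widens the difference by itself.

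Several genes of cardiac signalling and excitability were on the same lower side. Erbb4, the cardiomyocyte receptor for neuregulin, stood at 11.1, 7.79, 7.77, 7.40 and 8.51 CPM against 11 to 15.3 CPM (-0.59, SE 0.12), touching the other group in PDE5A inhibitor library 1. Abcc8, the sulfonylurea receptor subunit of ATP-sensitive potassium channels, stood at 37.4, 36.4, 37.0, 38.2 and 29.6 CPM against 41.4 to 54.9 CPM, with no overlap (-0.41, SE 0.08). Chrm2, the muscarinic receptor through which the vagus nerve slows the heart, gave 49.9 to 83.7 CPM against 75.0 to 95.5 CPM (-0.41, SE 0.10). Eef2k, the kinase that restrains translation elongation (-0.38, SE 0.08), the caspase Casp9 (-0.30, SE 0.07), the membrane linker Ezr (-0.27, SE 0.06) and the lipase inhibitor G0s2 (-0.76, SE 0.17) had no overlap. The kinase Map2k6, which activates p38, overlapped (-0.85, SE 0.20). Adjusted p for these 8 genes ran from 0.124 to 0.259 in edgeR, and all 8 passed in DESeq2.

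Cyp1a1, a cytochrome P450 induced through the aryl hydrocarbon receptor, had the largest fold of the genes named. With the PDE5A inhibitor it had 2 counts in all, both in library 2, and with the PDE9A inhibitor 259 counts, of which 150 were in library 1 and 1 in library 3. The ratio of the group levels, PDE9A over PDE5A inhibitor, was 138 with a 95% interval of 37.9 to 1147 that covers counting error only. Its edgeR adjusted p was 0.124. Sham libraries averaged 2.78 ± 1.98 CPM and TAC libraries 0.319 ± 0.342 CPM (SD, n = 5 each). It passed in DESeq2 (adjusted p = 0.0005). Of other genes in that receptor's pathway, chosen after the values were seen, Cyp1b1 gave 0.38 (SE 0.25, and 0.82 without PDE9A inhibitor libraries 1 and 4), Nqo1 0.33 (SE 0.14), Tiparp 0.15 (SE 0.10) and Ahrr 0.06 (SE 0.22). The whole list, with Cyp1a1, had 7 tested genes, 5 higher and 2 lower, with a median of 0.11. Cyp1a2 had no counts in any inhibitor library.

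No gene of the cyclic GMP pathway itself was called, and most fold changes were small. Among the enzymes that are the drugs' targets, Pde5a (ENSMUSG00000053965.10, GRCm38 chromosome 3, 122728947 to 122859374, plus strand) stood at 11.5, 10.9, 9.92, 12.2 and 11.6 CPM against 9.09 to 12.8 CPM. These ranges overlap almost wholly, and the log2 fold change was 0.05 with a 95% interval from -0.17 to 0.27. Pde9a (ENSMUSG00000041119.12, GRCm38 chromosome 17, 31386210 to 31476310, plus strand) stood at 2.36, 2.58, 4.56, 5.12 and 2.39 CPM against 1.49 to 3.77 CPM. PDE5A inhibitor libraries 3 and 4 were above the whole PDE9A inhibitor range, and the other 3 were inside it (0.48, interval -0.06 to 1.01, edgeR adjusted p = 0.540).

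Of 11 tested cyclic GMP-hydrolysing phosphodiesterases 7 were higher and 4 lower, with a median of 0.03. Pde3a, the isoform that cyclic GMP inhibits, was lower (-0.31, SE 0.13), as was Pde11a, which splits both cyclic nucleotides (-0.71, SE 0.32). These 2 were the only members at an unadjusted p under 0.05. Pde2a, which cyclic GMP stimulates, gave 0.14 (SE 0.10), and the calmodulin-dependent Pde1c -0.22 (SE 0.14). Of 8 cyclic AMP-selective phosphodiesterases 3 were higher and 5 lower, among them Pde4b at -0.33 (SE 0.12) and Pde4d at -0.34 (SE 0.15).

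On the side of synthesis, 4 of 8 tested members of the natriuretic peptide list were higher and 4 lower, median 0.01. The peptide gene Nppb stood at 635, 397, 898, 1140 and 716 CPM against 173 to 683 CPM, with overlap (0.81, SE 0.35, adjusted p = 0.434). Nppa gave 0.61 with an interval from -0.82 to 2.04. PDE5A inhibitor library 4 (3748 CPM) and PDE9A inhibitor library 3 (3090 CPM) lay far above the rest of their groups for Nppa. Corin, the protease that activates atrial natriuretic peptide, gave -0.25 (SE 0.11). The receptors gave narrow intervals for Npr1 (0.11, from -0.10 to 0.33) and Npr2 (-0.10, from -0.23 to 0.03), and a wider one for the clearance receptor Npr3 (0.39, from -0.12 to 0.89).

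In the nitric oxide list 8 of 13 were higher, with a median of 0.11, which was 0.17 without PDE9A inhibitor libraries 1 and 4 and -0.06 among tags of the 500 series. Nostrin, which regulates the traffic of endothelial nitric oxide synthase, stood at 8.93, 11.9, 9.23, 13.7 and 9.07 CPM against 6.75 to 8.97 CPM (0.44, SE 0.13, adjusted p = 0.329). The groups overlapped only between 8.93 and 8.97 CPM. The synthase Nos3 gave 0.12 (SE 0.11), and the soluble guanylate cyclase subunits Gucy1a3 and Gucy1b3 gave -0.28 (SE 0.26) and -0.14 (SE 0.12). Gucy1a3 read 62.8 and 80.6 CPM in PDE9A inhibitor libraries 1 and 4, and gave 0.17 without them. Of protein kinase G and its substrates 8 of 18 were higher, median -0.05, with the kinase Prkg1 at -0.07 (interval -0.23 to 0.09) and its target Rgs2 at -0.29 (SE 0.26).

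**Figure D3:**
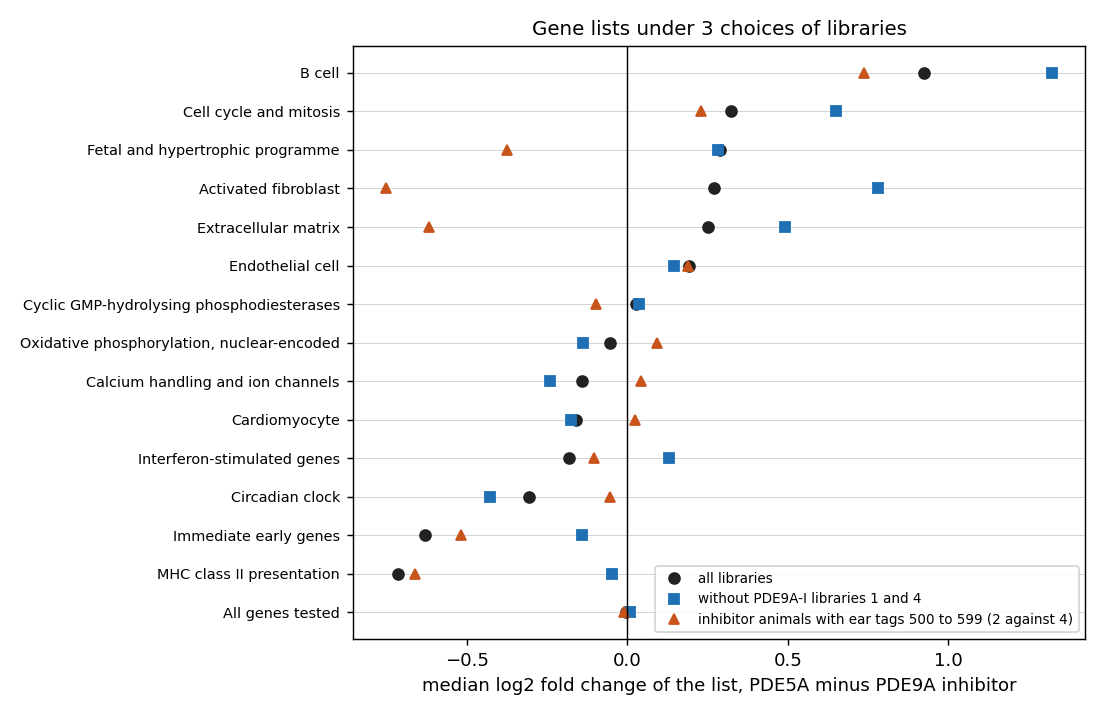
Median log2 fold change of the tested members of 14 gene lists and of all genes, PDE5A minus PDE9A inhibitor, with all libraries (circles), without PDE9A inhibitor libraries 1 and 4 (squares) and among inhibitor animals with ear tags of the 500 series (triangles, 2 against 4). The B cell median stays between 0.74 and 1.32, while the matrix median moves from 0.25 to 0.49 or to -0.62.

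Interferon-inducible GTPases and MHC class II genes were mostly lower with the PDE5A inhibitor, none of them called in edgeR. The size of the difference rested on PDE9A inhibitor libraries 1 and 4. Interferons bind cell-surface receptors and switch on defence genes. The p47 and guanylate-binding GTPases they induce attack intracellular microbes, and MHC class II molecules, under the regulator CIITA, present peptides to T cells. Promoters of a pair of these GTPases on chromosome 11, Igtp and Irgm2, are shown because their levels moved together. Capitals mark the gamma-activated sequence TTCNNNGAA, an element of genes that interferon gamma induces, and then the interferon-stimulated response element, GAAA then any 2 bases then GAAA, both searched on both strands. The stretches, from RefSeq (GRCm38.p6, plus strand), are chr11:58199466-58199535 for Igtp, intergenic in GENCODE, and chr11:58214857-58214926 for Irgm2, inside that gene's span. They end 21 and 51 bases before the start sites, and 68 of their 70 bases are identical (97.1%).
Igtp: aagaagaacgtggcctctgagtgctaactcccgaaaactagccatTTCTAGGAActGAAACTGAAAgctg
Irgm2: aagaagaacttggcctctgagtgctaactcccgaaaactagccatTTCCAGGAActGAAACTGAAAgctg

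The promoter table matched 9 of the 15 tested GTPases. All 9 hold the response element and 6 the gamma-activated sequence. Counted by promoter, 9 and 6 of their 10 have them, against 2.98% and 7.02% of all promoters. Igtp and Irgm2 overlap in GENCODE, so reads may be split between them.

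Igtp read 16.3, 15.4, 17.3, 11.1 and 16.0 CPM with the PDE5A inhibitor. With the PDE9A inhibitor it read 235 CPM in library 1, 58.8 in library 4 and at most 25.5 in the other 4. The groups did not overlap, and the 2 high libraries stood far above all others. The log2 fold change was -2.07 (SE 0.53, edgeR adjusted p = 0.265), and -0.54 (SE 0.15) without libraries 1 and 4. DESeq2 with all libraries called Igtp (-2.07, adjusted p = 0.0336) and another interferon-inducible GTPase, Iigp1 (-1.69, adjusted p = 0.03). Irgm2 read 22.5 to 31.1 CPM against 229, 86.6 and, in the other 4 libraries, 30.0 to 35.0 CPM (-1.45, SE 0.43). The 15 tested GTPases, a list chosen after the values were seen, were all lower, from -2.95 to -0.33 with a median of -0.87. Without the 2 libraries all were still lower, from -0.67 to -0.04, median -0.27.

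MHC class II genes followed. Of 8 tested, 7 were lower, median -0.71, with 5 at an unadjusted p under 0.05 against 5.91% of all genes in that direction. Without libraries 1 and 4 the median was -0.05, with 5 lower and none of them at that p, which 5.2% of all genes reached in that direction. Cd74, the invariant chain, read 78.8, 83.7, 92.9, 75.4 and 109 CPM with the PDE5A inhibitor. With the PDE9A inhibitor it read 302 and 193 CPM in libraries 1 and 4 and 77.5 to 120 CPM in the other 4. Ciita read 7.78 and 10.2 CPM in those 2 libraries against 2.26 to 4.19 CPM in the other 9 (-0.88, SE 0.30, and -0.18 without them). H2-Ob, which encodes the beta chain of the DO molecule and is typical of B cells, was the member on the other side (0.65, SE 0.25). Interferon-stimulated genes at large, 20 of 25 lower with a median of -0.18, turned to 22 of 25 higher with a median of 0.13 without the 2 libraries. The complement list turned likewise, from 14 of 17 lower (median -0.11) to 14 of 17 higher (0.18).

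Immediate early genes, the transcription factors that cells switch on within minutes of a stimulus, were lower in 22 of 23 cases, with a median of -0.63 and 1 at an unadjusted p under 0.05. Egr1 read 10.9, 8.39, 7.41, 11.4 and 16.1 CPM with the PDE5A inhibitor and 4.40 to 73.5 CPM, median 27.9, with the PDE9A inhibitor. The highest of the latter were again libraries 1 and 4, at 73.5 and 50.3 CPM, and libraries 5 and 6 lay within or below the PDE5A inhibitor range. Without libraries 1 and 4 the list's median was -0.14. The share of Rn45s counts was highest in the same 2 libraries, and its part in these lists was not tested.

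**Figure D4:**
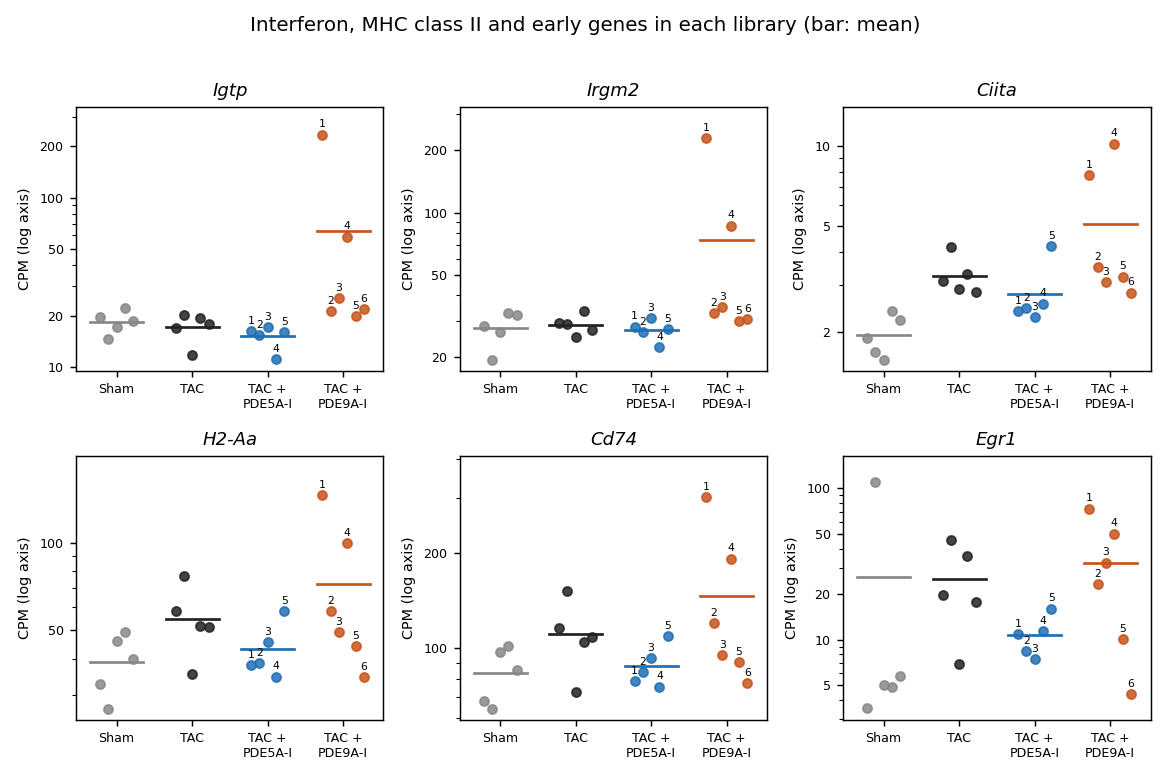
CPM on a log axis for Igtp, Irgm2, Ciita, H2-Aa, Cd74 and Egr1 in each library, with the number of each inhibitor library beside its point and a bar at the arithmetic mean. PDE9A inhibitor libraries 1 and 4 are the highest of the 11 inhibitor libraries in every panel, at 235 and 58.8 CPM for Igtp.

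Clock genes form the transcriptional loop that gives cells a daily rhythm, and 14 of the 19 tested were lower with the PDE5A inhibitor (median -0.31). At an unadjusted p under 0.05 were 9 lower and 2 higher, against 5.91% and 4.51% of all genes. All 9 encode repressors of the loop or factors that the loop drives. Dbp read 49.8, 38.1, 28.1, 14.8 and 11 CPM against 42.3 to 82.3 CPM, median 54.1 (-1.0, SE 0.37). Only PDE5A inhibitor library 1 lay inside the PDE9A inhibitor range. Per3 read 24.7, 18.8, 12.3, 8.40 and 9.07 CPM against 18.2 to 46.2 CPM (-1.04, SE 0.31), and Hlf, Per2, Per1, Nr1d2, Tef and Cry2 gave values from -1.03 to -0.45. The activators Arntl and Npas2 went the other way. Arntl read 14.4, 18.7, 25.4, 35.3 and 39.2 CPM against 6.50 to 20.2 CPM (0.91, SE 0.37), and Npas2 gave 0.68 (SE 0.32).

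Adjusted p for these clock genes was 0.315 or more in edgeR. With a term for the series of the ear tag, 9 members were lower and 0 higher at an unadjusted p under 0.05. Of all 14135 genes in that fit, 653 were lower and 495 higher at that p. Among animals with tags of the 500 series the median was -0.06 with none at that p. PDE5A inhibitor libraries 3, 4 and 5, whose tags are of the 600 series, held the lowest Dbp and Per3 and the highest Arntl of that group. The part of the hour of collection was not tested. A stretch of the Per1 promoter is shown for the E-box CACGTG (capitals), the site of the ARNTL and CLOCK pair, at chr11:69098759-69098828, plus strand, inside the gene span that GENCODE gives Per1.
Per1: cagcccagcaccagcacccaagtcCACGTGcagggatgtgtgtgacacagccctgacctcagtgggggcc

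Of the 19 tested clock genes 16 were matched in the promoter table, and 5 of them have an E-box there. Counted by promoter, 6 of their 21 have it, against 6.02% of all promoters.

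No gene of the load response was called, and the intervals were wide. Against sham, TAC without a drug raised the fetal myosin Myh7 by 4.56 on the log2 scale (edgeR adjusted p = 0.00312). Myh7 read 380, 420, 3386, 5714 and 6931 CPM with the PDE5A inhibitor and 432 to 9100 CPM, median 2351, with the PDE9A inhibitor. Both groups thus ran from near the sham mean of 244 ± 52.5 CPM to above the TAC mean of 5745 ± 2537 CPM (SD, n = 5 each). The log2 fold change was 0.07, with an interval from -1.42 to 1.56. Postn, a matrix protein of activated fibroblasts, read 457, 254, 764, 1643 and 720 CPM against 83.3 to 1322 CPM (0.69, interval -0.60 to 1.97). Comp, a cartilage matrix protein, read 92.4, 23.2, 58.3, 170 and 191 CPM against 7.20 to 301 CPM, with an interval from -1.40 to 1.71. Acta1, the skeletal actin, gave 0.78 (interval -0.40 to 1.95), the calcium pump Atp2a2 -0.16 (-0.51 to 0.19) and the adult myosin Myh6 -0.33 (-0.70 to 0.05).

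**Figure D5:**
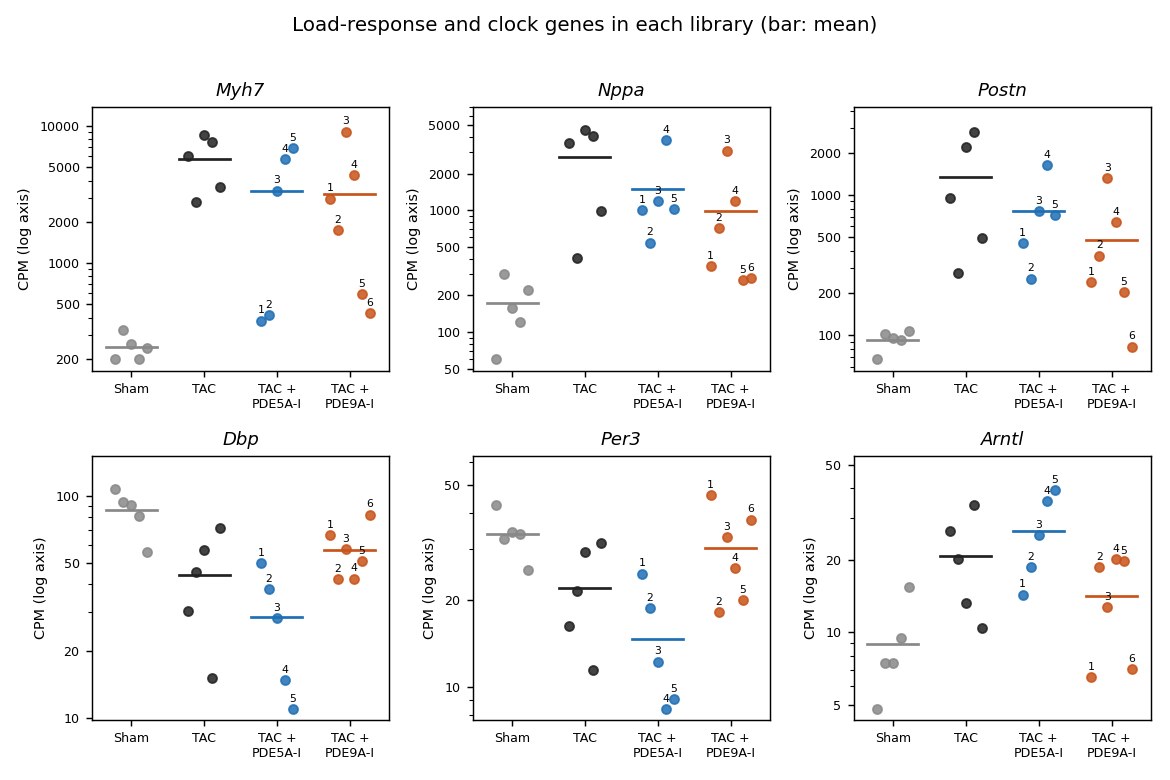
CPM on a log axis for the load-response genes Myh7, Nppa and Postn and the clock genes Dbp, Per3 and Arntl in each library, with inhibitor libraries numbered and a bar at the arithmetic mean. Myh7 spans 380 to 6931 CPM with the PDE5A inhibitor and 432 to 9100 CPM with the PDE9A inhibitor, while Dbp overlaps only through PDE5A inhibitor library 1.

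As lists, the load-response genes leaned to higher levels with the PDE5A inhibitor, but the lean depended on which animals were compared. In the fetal programme 14 of 16 were higher (median 0.29), and in the extracellular matrix 31 of 38 (median 0.25, 1 at an unadjusted p under 0.05). Without PDE9A inhibitor libraries 1 and 4 the matrix median was 0.49, and without library 6, which had the lowest Myh7, Postn and Comp of its group, 0.07. Among animals with tags of the 500 series, 36 of 38 matrix genes were lower (median -0.62), and the fetal median was -0.38. Col4a1, a basement membrane collagen, was the matrix gene of lowest p (0.56, SE 0.22), and the stretch-responsive Ankrd23 that of the fetal list (0.53, SE 0.19). Markers of activated fibroblasts went with the matrix, with 8 of 10 higher, a summed level of 680 to 3512 CPM against 359 to 2902 CPM, and medians of 0.27, 0.78 and -0.75 with those 3 choices of libraries: all, without 1 and 4, and tags of the 500 series.

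Calcium handling and ion channel genes leaned the other way, with 19 of 26 lower (median -0.14), 4 lower and 2 higher at an unadjusted p under 0.05, against 5.91% and 4.51% of all genes. The median was -0.24 without PDE9A inhibitor libraries 1 and 4, with 7 lower and 0 higher at that p (5.2% and 5.53% of all genes), and -0.07 without library 6. Kcnq1, a repolarising potassium channel, read 29.6, 36.5, 32.9, 28.5 and 40.1 CPM against 37.6 to 51.8 CPM (-0.40, SE 0.11), overlapping through PDE5A inhibitor library 5. The L-type calcium channel Cacna1c gave -0.30 (SE 0.12) and the calcium release channel Ryr2 -0.34 (SE 0.15). Kcna5, another potassium channel, was higher (0.54, SE 0.21). Sarcomere genes were lower in 16 of 20 cases (median -0.10) and cardiomyocyte markers in 11 of 13 (median -0.16). Without PDE9A inhibitor library 6 these medians were -0.06 and -0.06. Nuclear-encoded respiratory chain genes were lower in 31 of 37, by little (median -0.05). All 37 were lower without PDE9A inhibitor libraries 1 and 4 (median -0.14), and without library 6 alone 22 of 37 were higher (median 0.01). With tags of the 500 series the calcium, cardiomyocyte and respiratory chain medians were 0.04, 0.02 and 0.09.

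Cell cycle genes were higher in 28 of 32 cases, with a median of 0.32 and 1 member at an unadjusted p under 0.05 in each direction, against 4.51% of all genes higher and 5.91% lower. Without PDE9A inhibitor libraries 1 and 4 the median was 0.65 and 13 were higher at that p, against 5.53% of all genes. Kif20a, a mitotic kinesin, read 3.02, 3.49, 5.40, 3.23 and 2.81 CPM against 1.79 to 3.02 CPM (0.64, SE 0.23). Mki67, the proliferation antigen, read 30.7 and 27.0 CPM in PDE9A inhibitor libraries 1 and 4 and 6.37 to 15.0 CPM in the other 4, against 18.0 to 27.6 CPM with the PDE5A inhibitor. It gave 0.42 (SE 0.39) with all libraries and 1.07 without those 2.

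Endothelial markers were higher in 10 of 12 cases by small amounts, with a median of 0.19 and 6 higher at an unadjusted p under 0.05, against 4.51% of all genes. Emcn, a sialomucin of capillaries and veins, read 41.3, 48.5, 41.5, 47.8 and 47.5 CPM against 32.7 to 43.9 CPM (0.26, SE 0.08, adjusted p = 0.344). The receptor Tie1 gave 0.23 (SE 0.08), the junction proteins Esam and Cdh5 0.28 (SE 0.10) and 0.21 (SE 0.09), and Pecam1 0.17 (SE 0.07). Summed endothelial markers were 1253 to 1403 CPM with the PDE5A inhibitor and 1127 to 1349 CPM with the PDE9A inhibitor. The median was 0.15 without libraries 1 and 4, with 2 at that p against 5.53% of all genes, and 0.19 with tags of the 500 series, with none.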

How the data were processed

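The file used holds expected counts per gene symbol that the authors made with RSEM, 1 column per library and no pooling. The submitters' processing notes name the aligner HISAT2 2.0.5, RSEM 1.3.0, CASAVA 1.8.4, genome build mm10 and DESeq2 1.18.1. The sources used here do not give the annotation or whether counting used strand. Of the 24054 gene rows 27 carry symbols turned into dates, and these were not named.

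The deposited expected counts were rounded and fitted over all 21 libraries with edgeR 4.0.16 in R 4.3.3: filterByExpr by group, TMM scaling, robust quasi-likelihood fits with 1 mean per group, and Benjamini-Hochberg adjustment over the 14135 genes tested. The contrast, its 95% intervals and its call at an adjusted p under 0.05 come from that fit, in which all groups share an estimate of the spread. Total counts per inhibitor library were 24259067 to 36475924. Within each inhibitor group no 2 libraries agreed within sampling noise, and other pairs were not checked. The code was tested on simulated counts.

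Genes named were, in each direction, the 10 of largest change among called genes without overlap, filled up with those of lowest p at a mean of at least 1 CPM, and the 2 of lowest p in each of 51 lists, with a fixed set of cyclic GMP and load genes. Some genes that this rule names are not reported here. The members and lists were chosen with earlier results of these data known. Other genes, among them those of the 11 further B cell genes, the interferon-inducible GTPases and the aryl hydrocarbon receptor genes, were chosen after their values were seen. Alternatives were DESeq2 1.42.0, another scaling, no filter, the 11 libraries alone, the ear tag series, a replicate block, and leaving out libraries.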

Additional observations from a re-analysis of the deposited data

Results flagged for a closer look

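Among 260 groups of inhibitor libraries checked, 29 held a library whose distance from the nearest other exceeded the 95% limit of Dixon's test. Chance at 1 in 20 gives 13 for independent groups of normal values. These groups hold untransformed values from the same libraries, so 13 is not an exact expectation here. PDE5A inhibitor library 5 accounted for 8 of the 29. It had a high Cd79b (2.11 CPM), Pde11a (4.92), Cybb (19.1), Ern1 (18.8), Ciita (4.19) and Prdm16 (22.8), a low Abcc8 (29.6) and a low Rn45s share (0.228%). PDE5A inhibitor library 4 was high for Nppa (3748 CPM) and Kcna5 (39.2) and apart for Pln (3520) and Asb2 (420.7). PDE5A inhibitor library 3 was high for Kif20a (5.40 CPM), apart for Asph (407.5) and had the smallest total (26.7 M counts). PDE5A inhibitor library 2 was low for Cd79a (0.339 CPM), high for Kit (11.1), apart for Mcpt4 (0.495) and the only one of its group with Cyp1a1 counts (0.0521 CPM). PDE5A inhibitor library 1 stood apart for C3 (415.1 CPM).

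In the PDE9A inhibitor group, library 1 was high for Il1b (24.0 CPM), Cxcl9 (12.5) and the atrial myosin light chain Myl4 (13.2). Library 4 was high for C3 (1216 CPM) and Cd8a (1.21), and library 3 for Nppa (3090 CPM). Library 6 was low for Prkg1 (36.5 CPM), Slc25a36 (53.0) and H2-Ob (0.461). Libraries 1 and 4, which hold 5 of these, are those with the highest Rn45s shares. The atrial markers Myl7 and Sln, not among the genes checked, also reached 11.9 and 2.42 CPM in the PDE9A inhibitor group, with medians of 0.114 and 0.0677. Summed atrial markers were 1402 to 2165 CPM with the PDE5A inhibitor and 1154 to 2074 CPM with the PDE9A inhibitor.

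The effects of the inhibitors on Cd79b against TAC differed by 1.41 on the log2 scale, which is the direct comparison itself (edgeR adjusted p = 0.00591). In this test all 5 PDE5A inhibitor libraries lay above all 6 PDE9A inhibitor libraries.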

How the results depend on the processing

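Against 1 gene called in edgeR, DESeq2 called 35, the fit without PDE9A inhibitor libraries 1 and 4 called 2 (Cd79b and Cdh20), and leaving out 1 library called 1 to 8, the 8 without PDE5A inhibitor library 1. The count was 0 with only the 11 inhibitor libraries, with a replicate block or with ear tags of the 500 series, where 413 genes had an unadjusted p under 0.05 in the last. After each group's mean log2 CPM was subtracted gene by gene, the deviations of same-numbered inhibitor libraries correlated at 0.034, 0.225, 0.218, 0.340 and -0.022. The numbers were therefore not taken as pairs. With the block Cd79b gave 1.34 (edgeR adjusted p = 0.112) and Myh7 -0.22. Among 2487 values of 131 named genes under 19 alternatives, 2402 kept direction and side of the threshold, 29 gained a call, 3 lost one and 53 changed sign. With the ear tag term Myh7 gave -0.29 and Comp -0.23. Leaving out 1 library gave ranges of -0.37 to 0.73 for Myh7, -0.16 to 0.95 for Comp, -0.29 to 0.53 for Col1a1, -0.061 to 1.42 for Nppa, -0.029 to 0.34 for Pdpn and -0.036 to 0.19 for Ptcra. Without PDE9A inhibitor libraries 1 and 4 the values that turned were Gucy1a3 0.17, Col1a1 0.49, C3 0.011, Nfatc1 0.00063 and S100a9 0.47. With ear tags of the 500 series, 2 against 4 animals, 29 genes turned. Lower there were Pde9a -0.17, Npr1 -0.00079, Nppa -0.77, Nppb -0.034, Myh7 -3.31, Acta1 -0.78, Postn -0.84, Comp -1.03, Ankrd23 -0.22, Rcan1 -0.014, Vcan -0.25, Hspb6 -0.019, Mfap5 -0.53, Meox1 -0.64, Pdpn -0.45, Hba-a2 -0.014, Dio2 -0.84 and Ptcra -0.017. Higher there were Rgs2 0.30, Atp2a2 0.084, Corin 0.012, Ppargc1a 0.086, Cxcl9 0.12, Cdk2 0.020, Asb2 0.031, Acta2 0.055, Smtn 0.065, Abcc9 0.0092 and Mcpt4 0.0027. The cause was not tested. Depth limits the B cell genes in the PDE9A inhibitor group, where Cd79b rests on 10 to 24 counts per library and Ms4a1 on 2 to 14.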

Other observations

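Among metabolic genes, those of the tricarboxylic acid cycle were lower with the PDE5A inhibitor in 12 of 17 cases (median -0.06). Genes of fatty acid oxidation were lower in 22 of 32 (median -0.05), and 22 genes of glycolysis and glucose transport were split into 12 higher and 10 lower. Pdk4, the kinase that shuts pyruvate out of the cycle, read 615, 1222, 436, 365 and 627 CPM with the PDE5A inhibitor against 237 to 432 CPM (1.16, SE 0.36, edgeR adjusted p = 0.343). Pdk4 was highest in PDE5A inhibitor library 2, and the groups overlapped only through PDE5A inhibitor library 4 and PDE9A inhibitor library 5. Of 24 redox genes 16 were higher, led by the thioredoxin reductase Txnrd1 (0.26, SE 0.07). The lean of the cycle and of fatty acid oxidation depended on the animals compared. Without PDE9A inhibitor libraries 1 and 4 all 17 genes of the cycle were lower (median -0.15), and 29 of 32 of fatty acid oxidation (median -0.12). Without PDE9A inhibitor library 6, 9 of 17 and 17 of 32 were higher (medians 0.02 and 0.01). With ear tags of the 500 series 15 of 17 and 31 of 32 were higher (medians 0.10 and 0.22).

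MicroRNA processing genes were lower in 13 of 18 cases by small amounts (median -0.04), 5 of them at an unadjusted p under 0.05, against 5.91% of all genes. The median was -0.09 without PDE9A inhibitor libraries 1 and 4, with 1 lower at that p against 5.2% of all genes. Ago1 and Ago2, which hold microRNAs, gave -0.19 (SE 0.08) and -0.22 (SE 0.09), and the nuclease Drosha -0.22 (SE 0.10). The noradrenaline-making enzyme Dbh stood at 1.10, 0.834, 0.365, 0.352 and 0.562 CPM with the PDE5A inhibitor and at 0.836 to 2.23 CPM with the PDE9A inhibitor (-1.12, SE 0.36, edgeR adjusted p = 0.345). PDE5A inhibitor library 1 lay inside that range and library 2 just under its lowest value. Th, an enzyme before it in the pathway, had no counts in any inhibitor library. In the TGF-beta list 13 of 25 were higher (median 0.00). This was 18 of 25 without PDE9A inhibitor libraries 1 and 4 (median 0.23), and with ear tags of the 500 series 23 of 25 were lower (median -0.37). The stress cytokine Gdf15 gave 1.73 (SE 0.76) and the matrix protein Tgfbi -0.45 (SE 0.16). Among small heat shock proteins Hspb6, a protein kinase G substrate, gave 0.37 (SE 0.13) and Hspb8 0.22 (SE 0.10).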
